A study of Rattus norvegicus with 12 samples.

Results

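Growth hormone (GH) and insulin-like growth factor 1 (IGF1) form the main endocrine axis of body growth, and the liver is its relay. GH binds its receptor GHR on hepatocytes, the kinase JAK2 phosphorylates the transcription factor STAT5B, and STAT5B drives IGF1, IGFALS and the feedback inhibitor SOCS2. Secreted IGF1 circulates bound to IGF binding proteins, most of it in a complex of IGF1, IGFBP3 and the acid-labile subunit that IGFALS encodes, while IGFBP1 is a small, rapidly regulated binding protein that insulin represses. In liver regeneration IGFBP1 is known as an immediate early gene, switched on within hours of partial hepatectomy (PH).

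Liver RNA of adult male Sprague Dawley rats was sequenced at 0, 4, 12 and 24 h after removal of most of the liver by PH. The genes examined here are 10 members of this axis, chosen by symbol (IGF1, IGFBP1, IGFBP2, IGFBP3, IGFBP4, IGFALS, GHR, SOCS2, STAT5B and INSR), and all 10 were found among the 14692 genes of the deposited table. Control rats had a sham biliary fistula 24 h before PH, another set of rats had a true biliary fistula that drained bile to the outside, and the last set had the fistula together with the bile acid sodium taurocholate infused into the duodenum. All rats, Control included, carried a duodenal catheter with a continuous saline infusion. The sham in Control was of the fistula and not of PH, and no column at 4, 12 or 24 h comes from rats without PH. Changes from 0 h below therefore describe time after PH. The part of the operation itself, anaesthesia, feeding or time of day in them was not tested. The columns are titled Control, BF and BA, and the sources disagree on the last pair: the sample descriptions assign the infusion to the samples titled BF, whereas in the paper BF means the fistula without bile acids. BF and BA are therefore used below only as the titles of the columns, and no statement on the infusion rests on them. CYP7A1, the rate-limiting enzyme of bile acid synthesis, which is repressed when bile acids return from the intestine, was at 387 RPKM in BF, 54.9 RPKM in BA and 60.0 RPKM in Control at 0 h.

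A column holds the mean that the authors took of 2 runs. The earlier run used a single rat (n = 1), and the later one used liver RNA combined from 3 rats. Values are RPKM, read counts scaled to transcript length and to the reads of the library, so levels can be compared between genes. With 1 averaged value for each group and time no spread between rats can be computed, no difference below has a replicate check, and no p-value is given. The number of reads per column is unknown. Differences are log2 ratios after adding 1 RPKM to both values, 2-fold (a log2 ratio of 1) is used as the size at which a gene is counted, and each count is read beside the share of the 8459 genes averaging 1 RPKM or more that meet the same rule. In bulk tissue, fewer cells of a type and less RNA per cell cannot be told apart.

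Some columns stood apart. In BA at 4 h the albumin gene ALB took 30.9% of all RPKM, against 5.60% to 13.4% in the other columns, and the median gene was at 8.68 RPKM, the lowest of the 12 columns. In BF at 12 h 7 genes of pancreatic acinar cells summed to 129.5 RPKM, against at most 2.06 RPKM elsewhere. The median of all 8459 genes itself shifted from 0 h by a log2 ratio of -0.19, -0.16 and 0.21 at 4, 12 and 24 h in Control, by -0.072, -0.054 and 0.28 in BF, and by -0.32, -0.13 and 0.15 in BA. The liver label was met in all 12 columns, where the hepatocyte genes ALB, TTR, SERPINA1, CPS1 and FGB were never below 719.5 RPKM.

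The regulatory sequence upstream of IGFBP1 is shown because IGFBP1 moved most of the 10 members, and that of CISH because CISH is a textbook STAT5 target whose transcript is set beside SOCS2 further on. FOXO transcription factors, which insulin inactivates, act on IGFBP1 through an insulin response element rich in A and T, and STAT5 binds palindromes of the form TTCNNNGAA. Promoters of 9 of the 10 members were matched in RefSeq (GRCr8), all but SOCS2, and the 250 bases before each gene start were searched on both strands for AAAACAA and TTCNNNGAA. These lie at chr14:86261027-86261276 for IGFBP1 and chr8:116850719-116850968 for CISH, both on the plus strand, and capitals mark AAAACAA in IGFBP1 and TTCNNNGAA in CISH.
IGFBP1: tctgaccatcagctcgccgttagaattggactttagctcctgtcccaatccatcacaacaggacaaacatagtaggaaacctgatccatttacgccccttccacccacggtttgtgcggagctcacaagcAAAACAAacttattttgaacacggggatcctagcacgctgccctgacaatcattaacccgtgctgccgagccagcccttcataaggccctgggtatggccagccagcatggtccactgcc
CISH: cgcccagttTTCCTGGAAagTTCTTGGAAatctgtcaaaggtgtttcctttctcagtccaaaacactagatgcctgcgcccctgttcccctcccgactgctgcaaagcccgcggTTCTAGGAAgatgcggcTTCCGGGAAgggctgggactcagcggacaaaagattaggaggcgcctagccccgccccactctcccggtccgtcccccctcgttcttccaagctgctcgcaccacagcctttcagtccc

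The IGFBP1 window holds AAAACAA once, from -120 to -114 counted from the gene start, and 7.96% of the 33469 RefSeq promoter windows of this length hold it on either strand. Among the other members only IGF1 had it, at -66 to -60 and, on the opposite strand, at -36 to -30. The CISH window holds TTCNNNGAA 4 times, where 7.67% of all windows hold it at all, and 0 of the 9 member windows did. A match describes letters only, and its use in these livers was not tested.

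By their median over the 12 columns the members were ordered IGFBP4 at 844.7 RPKM, IGF1 at 290.2, GHR at 173.1, IGFBP1 at 137.2, IGFALS at 83.1, IGFBP3 at 17.1, INSR at 16.8, SOCS2 at 14.3, STAT5B at 11.1 and IGFBP2 at 3.57 RPKM. The lowest IGFBP4 value (714.1 RPKM) was above the highest IGF1 value (552.5 RPKM), the lowest IGF1 value (254.8 RPKM) above the highest GHR value (238.1 RPKM), and the lowest STAT5B value (9.52 RPKM) above the highest IGFBP2 value (6.94 RPKM). All other neighbours in this order had overlapping ranges. IGFBP1 spanned the widest range, from 7.62 to 1182 RPKM, and its highest value exceeded that of IGFBP4. SOCS2 came next, between 1.90 and 50.3 RPKM, whereas the highest value of STAT5B was 1.59 times its lowest, that of IGFBP4 1.63 times, that of INSR 1.68 times and that of GHR 1.74 times.

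**Figure D1:**
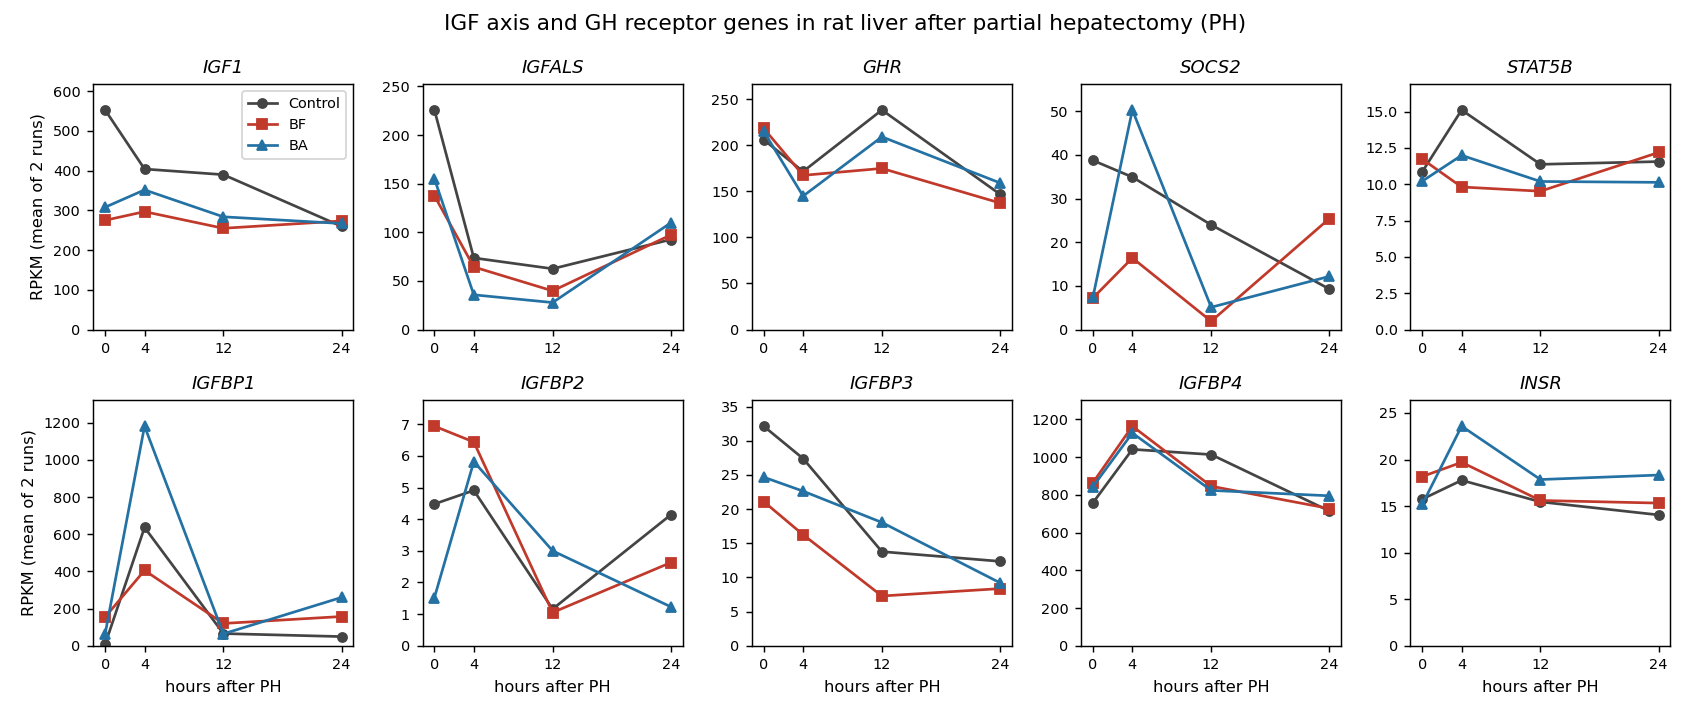
RPKM of the 10 members (y axis, from 0, a separate scale in each panel) against hours after PH (x axis) in Control (circles), BF (squares) and BA (triangles). Each point is the authors' mean of 2 runs and has no error bar. IGFBP1 is highest at 4 h in all 3 groups, IGFALS lowest at 12 h, and the 3 IGF1 curves, which start between 274.9 and 552.5 RPKM, end between 259.6 and 273.2 RPKM.

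IGF1, the growth factor itself, separated the groups before PH and not at 24 h. In Control it was at 552.5 RPKM at 0 h, 403.9 at 4 h, 389.8 at 12 h and 259.6 at 24 h. In BF it was at 274.9, 296.7, 254.8 and 273.2 RPKM at the same times, and in BA at 307.8, 351.4, 283.7 and 266.9 RPKM. Control was thus highest at 0, 4 and 12 h and lowest at 24 h, where the highest group was 1.05 times the lowest. The log2 ratio of 24 h to 0 h was -1.09 in Control, -0.0090 in BF and -0.21 in BA. At 0 h IGF1 was lower than in Control by a log2 ratio of -1.004 in BF, just past the 2-fold size, and of -0.84 in BA. Scaling all columns to a common median gene made the 0 h ratios -0.79 and -0.74, so that neither reached 2-fold. BA at 4 h, lower than Control by -0.20 as deposited, stood at 0.045. On that scale the ratio of 24 h to 0 h was -1.43 in Control, -0.42 in BF and -0.45 in BA, so the level course in BF depends on the scale. At 24 h the rescaled ratios to Control were 0.22 in BF and 0.23 in BA.

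IGFALS encodes the acid-labile subunit, made in hepatocytes under GH control. It measured 225.7, 137.6 and 155.0 RPKM in Control, BF and BA at 0 h, then 73.6, 64.3 and 35.7 RPKM at 4 h. The 3 values at 12 h were 62.5 (Control), 39.8 (BF) and 27.8 RPKM (BA). At 24 h it was at 92.6, 97.3 and 109.7 RPKM, above the 12 h values and still below every 0 h value. Against 0 h, the 24 h log2 ratios were -1.28 in Control, -0.50 in BF and -0.49 in BA. After rescaling they were -1.61, -0.90 and -0.74. Control at 12 h was then at -1.63, so its higher level at 24 h depends on the scale. IGFALS was the only member at least 2-fold lower than at 0 h in all 3 groups at 4 h, a rule that 2.73% of all genes met, and the only one at 12 h, where 2.70% did. Without the BA columns 3 members were 2-fold lower at 12 h in the remaining groups, IGFBP2 and IGFBP3 in addition, where 3.94% of all genes met that looser rule. The log2 ratio of 12 h to 0 h was -1.84 in Control, -1.77 in BF and -2.44 in BA. BA was 2-fold below Control at 4 h (-1.02) and at 12 h (-1.14), and the 4 h value was -0.79 after rescaling.

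GHR, the receptor, varied little. It measured 205.9, 218.2 and 215.0 RPKM in Control, BF and BA at 0 h, then 171.4, 167.3 and 144.8 RPKM at 4 h. At 12 h these values were 238.1, 174.8 and 209 RPKM, and those at 24 h were 146.7, 137.2 and 159 RPKM. The 3 values at 4 h and the 3 at 24 h lay below all 3 at 0 h, while those at 12 h overlapped them. The largest log2 ratio from 0 h was -0.67, in BF at 24 h, which was -1.08 after rescaling. The groups differed little at each time, and the order of Control and BF at 4 and 24 h changed with rescaling. STAT5B, the signal transducer, was between 9.52 and 15.1 RPKM, highest in Control at 4 h. INSR, the insulin receptor, was between 14.1 and 23.6 RPKM, highest in BA at 4 h. Neither was 2-fold from its 0 h value or from Control in any column.

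SOCS2, which GH induces and which shuts GH signalling off, differed more between groups than IGF1 did. In Control it was at 38.7 RPKM at 0 h, 34.9 at 4 h, 24.0 at 12 h and 9.27 at 24 h, each value below the one before. In BF it was at 7.24, 16.4, 1.90 and 25.4 RPKM at the same times, and in BA at 7.46, 50.3, 5.11 and 12.2 RPKM. BF and BA were therefore low at 0 and 12 h and higher at 4 and 24 h, a zigzag that Control did not show. At 0 h the log2 ratio to Control was -2.27 in BF and -2.23 in BA, and at 12 h -3.11 and -2.03. At 24 h it had the other sign, 1.36 in BF and 0.36 in BA. The 12 h value of BF comes from the column with the pancreatic transcripts, whose part in it was not tested, and the 12 h value of BA, without such transcripts at 0.72 RPKM in sum, had the same direction.

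IGFBP1 had the largest changes. It measured 7.62, 154.5 and 63.8 RPKM in Control, BF and BA at 0 h, so that the sham column was 20.3 times below BF and 8.37 times below BA. At 4 h these values were 636.9, 405.8 and 1182 RPKM. It was the only member at least 2-fold higher than at 0 h in all 3 groups at 4 h, a rule met by 1.71% of all genes, with log2 ratios of 6.21 in Control, 1.39 in BF and 4.19 in BA. BF had both the highest level at 0 h and the lowest at 4 h. The 3 values at 12 h were 65.6 (Control), 120.0 (BF) and 64.1 RPKM (BA), and those at 24 h were 49.2, 157.3 and 260.2 RPKM. Control thus stayed above its 0 h level, by log2 ratios of 2.95 and 2.54, whereas BF was near its own (-0.36 and 0.026, the latter -0.39 after rescaling). BA was at its 0 h level at 12 h (0.0065) and above it at 24 h (2.01).

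Against IGF1 the change in IGFBP1 was one of rank. At 4 h there were 1.58 RPKM of IGFBP1 for each RPKM of IGF1 in Control, 1.37 in BF and 3.36 in BA. In the other 9 columns IGFBP1 was below IGF1, with ratios from 0.0138 in Control at 0 h to 0.975 in BA at 24 h. Of the summed RPKM of the 4 binding proteins IGFBP1 made 0.950% in Control at 0 h and 37.2% at 4 h, 14.8% and 25.5% in BF, and 6.83% and 50.5% in BA. IGFBP4 made 48.2% to 94.5%. These ratios are taken within a column, so the scale of the columns does not enter them.

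**Figure D2:**
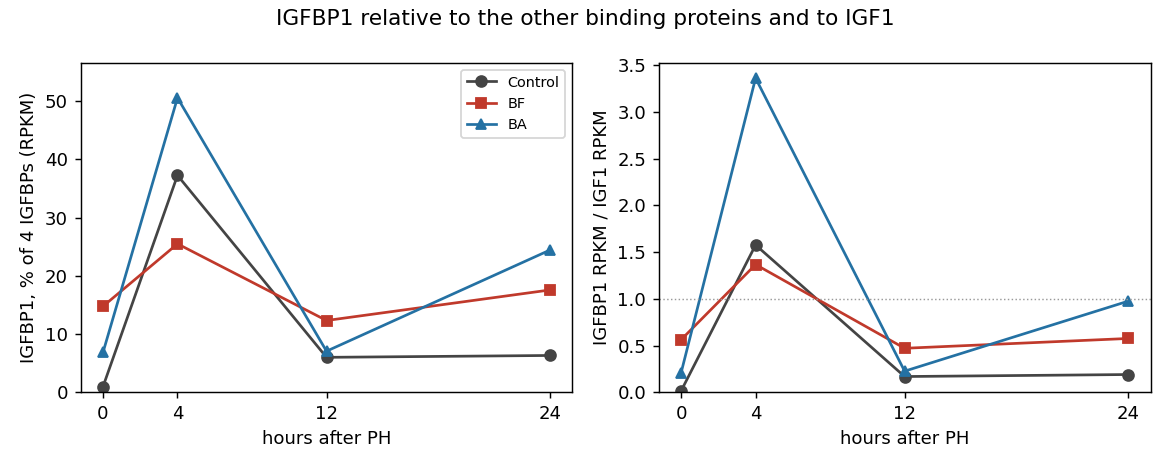
IGFBP1 as a percentage of the summed RPKM of IGFBP1, IGFBP2, IGFBP3 and IGFBP4 (left) and as a ratio to IGF1 RPKM (right, dotted line at 1) against hours after PH in Control (circles), BF (squares) and BA (triangles), 1 averaged column per point. The share peaks at 4 h in each group, at 37.2%, 25.5% and 50.5%, and the ratio is above 1 at 4 h alone.

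IGFBP3, the main carrier of IGF1 in blood, is made in rat liver largely by cells other than hepatocytes. It measured 32.1, 21.1 and 24.7 RPKM in Control, BF and BA at 0 h, then 27.4, 16.3 and 22.6 RPKM at 4 h. At 12 h these values were 13.8, 7.28 and 18.0 RPKM, and those at 24 h were 12.4, 8.36 and 9.20 RPKM. All 3 values at 12 h and all 3 at 24 h lay below the lowest at 0 h. The 12 h value of BF, the lowest of all, is from the column with pancreatic transcripts. IGFBP3 was the only member 2-fold lower in all 3 groups at 24 h, by log2 ratios of -1.31 in Control, -1.24 in BF and -1.33 in BA, a rule that 0.662% of all genes met.

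Marker genes of the cells between hepatocytes were read beside IGFBP3. The 3 of 6 sinusoidal endothelial genes found (LYVE1, PECAM1 and FCGR2B) summed to 113.3 to 130.7 RPKM at 0 h, 112.6 to 134.3 at 4 h, 101.4 to 127.2 at 12 h and 86.7 to 111.4 at 24 h. The 7 Kupffer cell genes summed to 321.7 to 383.2 RPKM at 0 h, 321.2 to 338.5 at 4 h, 253.2 to 262.7 at 12 h and 313.7 to 351.4 at 24 h. The 7 stellate cell genes summed to 64.9 to 83.3 RPKM at 0 h, 49.5 to 58.3 at 4 h, 37.3 to 51.8 at 12 h and 63.1 to 72.6 at 24 h. None of these markers was at 0 in any column. Compared with 0 h, the stellate sums were lower without overlap at 4 and 12 h, the Kupffer sums at 12 h and the endothelial sums at 24 h. Not every gene followed its sum. Those below all their 0 h values were 4 of 7 stellate genes at 4 h (33.7% of all genes) and 4 of 7 at 12 h (32.5%). They were 5 of 7 Kupffer genes at 12 h and 2 of 3 endothelial genes at 24 h (9.45%). The stellate gene PDGFRB was highest in BF at 12 h. IGFBP3 overlapped its 0 h values at 4 h, where the stellate sums did not, and at 24 h the Kupffer and stellate sums overlapped theirs, where IGFBP3 did not. Their part in the lower IGFBP3 was not tested.

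IGFBP4, an inhibitory binding protein and the most abundant member, measured 758.0, 864.8 and 843.7 RPKM in Control, BF and BA at 0 h. At 4 h these values were 1041, 1164 and 1128 RPKM, above all 3 values at 0 h, with log2 ratios of 0.46, 0.43 and 0.42. At 12 h Control remained there, at 1013 RPKM, and BF and BA were at 845.7 and 823.5 RPKM. At 24 h these values were 714.1, 727.3 and 794.9 RPKM. IGFBP2, a binding protein prominent in fetal liver and in fasting, measured 4.48, 6.94 and 1.52 RPKM in Control, BF and BA at 0 h. It was at 4.91, 6.44 and 5.82 RPKM at 4 h, 1.16, 1.05 and 3 RPKM at 12 h, and 4.14, 2.63 and 1.23 RPKM at 24 h. No order of the groups held over the times, and at such levels the added 1 RPKM moves the ratios.

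Counted over all members, 11 of 30 values were at least 2-fold from 0 h in Control, where 11.5% of the values of all genes were. In BF 10 of 30 were, beside 10.3%, and in BA 7 of 30, beside 10%. They came from 6 members in Control (IGF1, IGFBP1, IGFBP2, IGFBP3, IGFALS and SOCS2), and IGF1 was not among those of BF or BA. No member was 2-fold higher in all 3 groups at 12 or at 24 h, rules met by 0.414% and 2.54% of all genes.

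Read by whether the groups overlapped, IGFALS and GHR were below all 0 h values at 4 h (33.7% of all genes), and IGFBP1 and IGFBP4 above them (13.6%). At 12 h IGFALS and IGFBP3 were below (32.5%) and 0 members above (12.4%). At 24 h, 4 members lay below all 3 values at 0 h, namely IGF1, IGFALS, GHR and IGFBP3, where 9.45% of all genes did, and 0 lay above, where 40.1% did. The counts at 4 and 12 h are near or below these shares. After rescaling 6 members lay below at 24 h (IGFBP4 and STAT5B in addition), where 30.3% of all genes then did, so the count at 24 h is less apart from the background on that scale. Without the BA columns 7 members lay below at 24 h (15.2% of all genes), and without the BF columns 4 did (13.3%). As deposited, the median log2 ratio of the 10 members was -0.32 in Control, -0.24 in BF and -0.13 in BA, against 0.21, 0.28 and 0.15 for all genes.

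**Figure D3:**
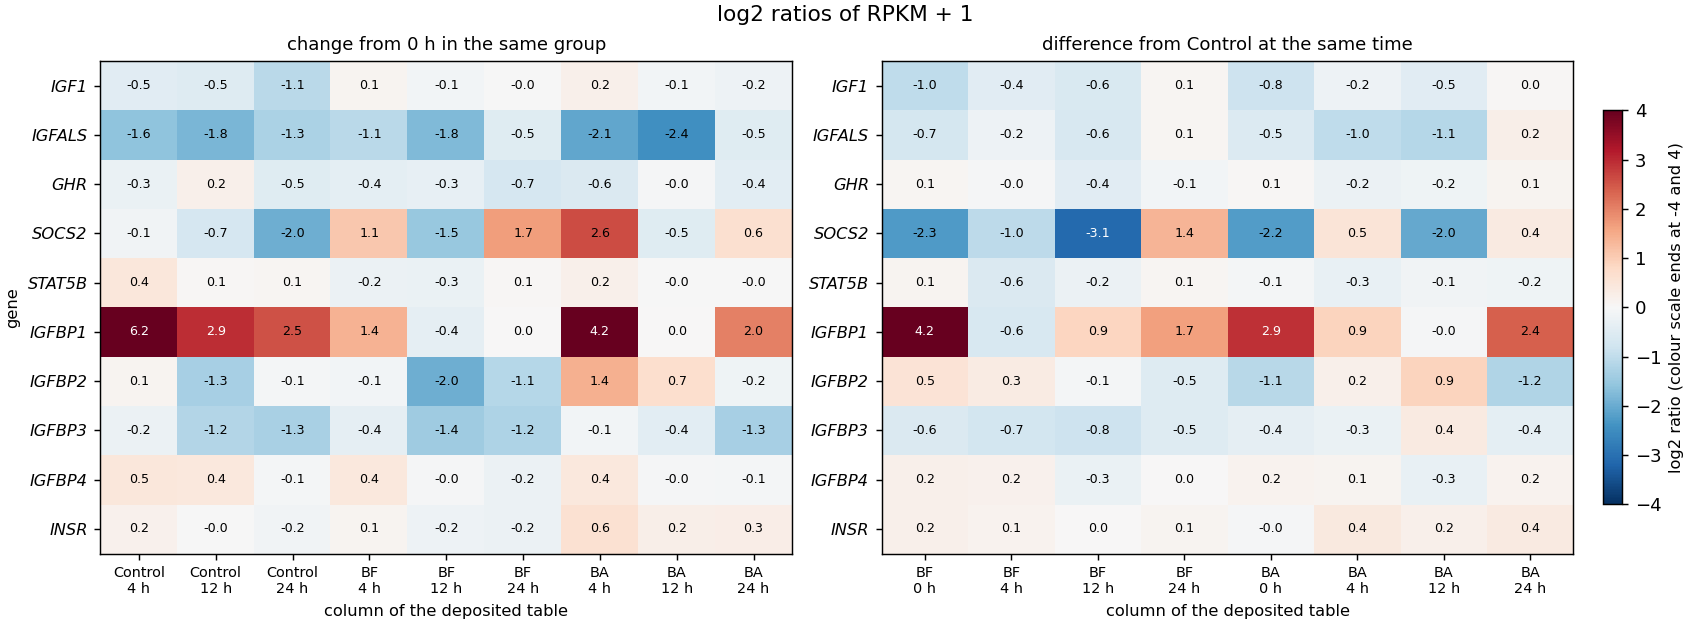
Log2 ratios of RPKM + 1 for the 10 members (rows) from 0 h in the same group (left) and from Control at the same time (right), printed in each cell; red is higher and blue lower, and the colours end at -4 and 4. The row of IGFBP1 holds the largest values (6.2 at 4 h in Control on the left, 4.2 at 0 h in BF on the right), IGFALS is negative in all cells on the left, and SOCS2 differs from Control at 0 and 12 h in BF and in BA.

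Between groups, 7 of 40 member values were at least 2-fold apart in BF and Control (3.46% of the values of all genes), 8 of 40 in BA and Control (3.77%) and 7 of 40 in BF and BA (2.58%). IGFBP1 and SOCS2 supplied 6 of the 7 in the BF and Control comparison, IGF1 at 0 h being the other. After rescaling 5 were left, without IGF1 at 0 h (-0.79) and SOCS2 at 4 h (-0.95). The 8 in BA and Control were IGFBP1 at 0 and 24 h, SOCS2 at 0 and 12 h, IGFALS at 4 and 12 h and IGFBP2 at 0 and 24 h. Rescaling left 7, losing IGFALS at 4 h (-0.79) and IGFBP2 at 24 h (-0.996) and adding IGFBP1 at 4 h (1.14). Before PH, 2 members were 2-fold lower in BF than in Control (IGF1 and SOCS2; 2.16% of all genes) and 1 was higher (IGFBP1; 1.73%). In BA 2 were lower than in Control at 0 h (SOCS2 and IGFBP2; 2.15%) and 1 was higher (IGFBP1; 1.87%). The BF and BA comparisons use the same Control columns and are not independent of each other. BF and BA differed from each other by 2-fold in IGFBP1 at 0 h (1.26) and 4 h (-1.54). They also did so in SOCS2 at 4, 12 and 24 h (-1.56, -1.08 and 1.00, the last 0.95 after rescaling). The other such differences were in IGFBP2 at 0 h (1.66) and in IGFBP3 at 12 h (-1.20). For SOCS2 and IGFBP3 the 12 h value of BF is from the column with pancreatic transcripts, whose part was not tested.

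A list of 35 further genes of GH, IGF and insulin signalling was read from the same columns, and 22 of the 30 found by name averaged 1 RPKM or more. Of these 22, 3 were at least 2-fold from 0 h in all 3 groups at 4 h, 2 higher (1.71% of all genes) and 1 lower (2.73%). SOCS3, an inhibitor of cytokine receptors and of GHR, measured 11.3, 12.2 and 17.4 RPKM in Control, BF and BA at 0 h against 65.1, 53.7 and 85.1 RPKM at 4 h. PTPN1, a phosphatase that acts on the insulin receptor and JAK2, was at 7.50, 7.57 and 10.2 RPKM at 0 h against 42.1, 17.0 and 44.1 RPKM at 4 h. GRB14, an adaptor that inhibits the insulin receptor, was lower, at 45.3, 37.7 and 33.4 RPKM at 0 h and 20.7, 12.9 and 12.0 RPKM at 4 h. Its log2 ratio in Control was -1.09, just past the 2-fold size. After rescaling, 2 of the 22 genes in place of 3 were 2-fold from 0 h in all 3 groups at 4 h. SOCS3 alone of the 22 was still 2-fold up in all 3 groups at 12 h, where 0.414% of all genes were. At 24 h 0 of the 22 were 2-fold from 0 h in all groups. Of all genes 0.662% were then lower and 2.54% higher, so this count is near the background.

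CISH and ONECUT1 were among the genes of the list that were 2-fold from Control at 2 or more times. CISH, another STAT5-induced inhibitor, measured 29.5, 3.85 and 5.76 RPKM in Control, BF and BA at 0 h, then 10.9, 9.31 and 12.3 RPKM at 4 h, with 29.3, 6.94 and 4.46 RPKM at 12 h. At 24 h these values were 6.69, 13.5 and 12.6 RPKM. Control was thus low at 4 and 24 h and high at 0 and 12 h, a course that SOCS2 in Control did not have. ONECUT1 (HNF6), a hepatocyte transcription factor that GH induces, was at 32.1, 11.3 and 10.3 RPKM at 0 h, 52.3, 36.3 and 55.6 RPKM at 4 h, 36.0, 9.91 and 13.5 RPKM at 12 h and 17.8, 30.8 and 18.0 RPKM at 24 h. As for SOCS2, Control was highest at 0 and 12 h for both genes, and lowest at 24 h, although ONECUT1 was then nearly the same in Control and BA. Of the 22 genes of the list 10 were highest in Control at 0 and 12 h (30.8% of all genes), and CISH and ONECUT1 alone were also lowest there at 24 h (1.75%), a pattern chosen after the values were seen. Across the 12 columns Pearson's r of log2(RPKM + 1) was 0.92 for SOCS2 with ONECUT1, 0.71 for SOCS2 with CISH and 0.67 for CISH with ONECUT1, a description over columns that share their scale, time and group.

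PIK3R1, PRLR and PTPN1 were the other genes so named. PRLR had another order, lowest in Control at 12 h. PTPN1, given above for its rise at 4 h, had log2 ratios to Control of -1.26 at 4 h and -1.28 at 12 h in BF. In BA these ratios were 0.066 and -1.03. PIK3R1, the regulatory subunit of the kinase that relays insulin and IGF1 signals, measured 41.2, 18.8 and 24.9 RPKM in Control, BF and BA at 0 h against 100.01, 16.7 and 72.8 RPKM at 4 h. BF was thus the column without the higher value at 4 h, a log2 ratio to Control of -2.51. PRLR, the prolactin receptor, which also binds lactogenic hormones related to GH, was at 5.56, 2.48 and 0.93 RPKM at 0 h, 0.76, 9.72 and 2.23 RPKM at 12 h, and 2.68, 9.84 and 1.09 RPKM at 24 h. For PRLR and PTPN1 the 12 h value of BF is again from the column with pancreatic transcripts, and the 24 h value of PRLR in BF is not.

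**Figure D4:**
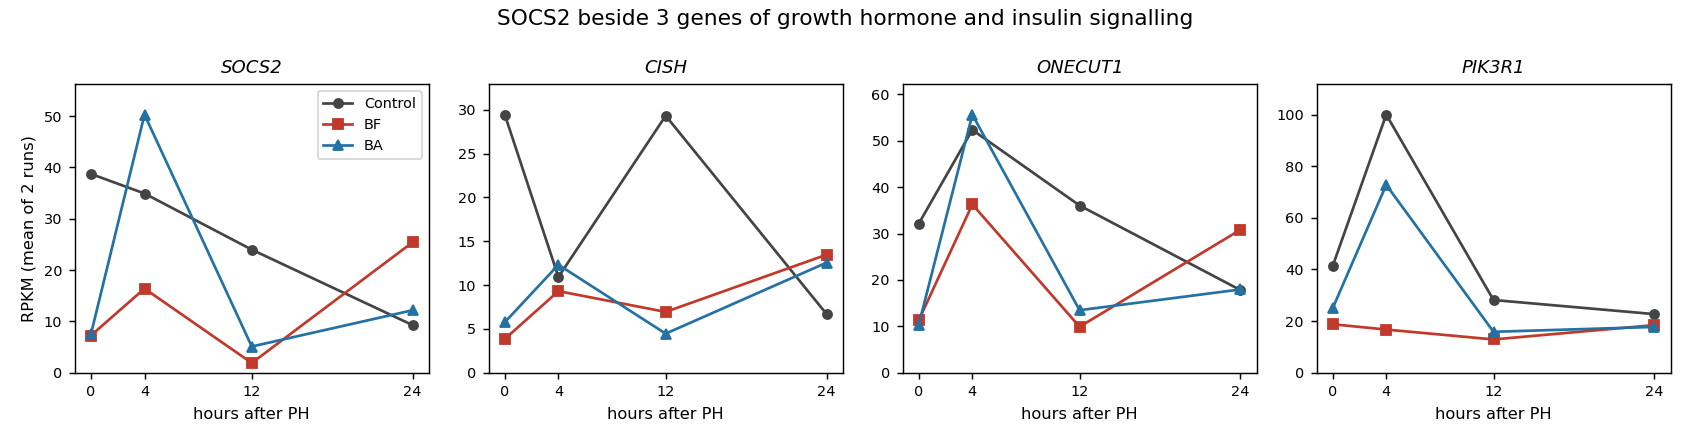
RPKM (y axis, from 0, a separate scale in each panel) of SOCS2, CISH, ONECUT1 and PIK3R1 against hours after PH in Control (circles), BF (squares) and BA (triangles), 1 averaged column per point. Control is the highest group at 0 and 12 h in all 4 panels, and in BF PIK3R1 stays between 12.9 and 18.8 RPKM.

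Among 4477 other genes averaging 10 RPKM or more, those most like IGF1 over the 12 columns were CES3 (r = 0.89), the methyltransferase INMT (0.87), the ADP-ribose hydrolase MACROD1 (0.86), the D-lactate dehydrogenase LDHD (0.86) and the thyroid hormone carrier TTR (0.86). CES3, a carboxylesterase, measured 253.2, 39.8 and 63.7 RPKM in Control, BF and BA at 0 h against 34.3, 25.1 and 19.4 RPKM at 24 h. The genes most like IGFBP1 were NFIL3 (r = 0.95), the adenylyl cyclase ADCY1 (0.90), H6PD (0.89), which makes NADPH in the endoplasmic reticulum, the ubiquitin ligase RNF8 (0.87) and the interleukin receptor antagonist IL1RN (0.87). These r values describe columns that share time and group. NFIL3, a basic leucine zipper repressor, measured 10.4, 31.7 and 23.2 RPKM in Control, BF and BA at 0 h against 60.3, 51.5 and 87.0 RPKM at 4 h. This is the order of IGFBP1 at both times, but NFIL3 was picked by its r over these same columns. Among pairs of members the highest r was 0.73, for IGFBP1 with INSR, and the lowest -0.50, for IGFBP1 with GHR. IGFBP1 and IGFBP3 are neighbours in the rat genome, on opposite strands, and r between them was -0.10.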

How the data were processed

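Liver RNA of Control, BF and BA rats was sequenced at 0, 4, 12 and 24 h after PH. The authors deposited 1 table of RPKM values with 1 column for each group and time. Per the labels a column is the mean of 2 runs. The paper does not mention these runs and describes a column as an average over 4 animals. The submitters' processing notes name CASAVA, Bowtie 0.12.2, rn4 and mm8 with no role given. RPKM is relative to the reads of a column, so a very abundant transcript lowers the values of the others, and the read depth behind a value is unknown.

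Columns were matched to samples by title. Log2 ratios were computed after adding 1 RPKM, and shares of all genes over the 8459 genes averaging 1 RPKM or more (Python 3.11.15, numpy 2.4.6, pandas 2.3.3). The code was checked on simulated data. With 1 averaged column per group and time no test was run. The members and lists were chosen with earlier results of these data known. Named are all members, genes of the pathway list at least 2-fold from 0 h in all 3 groups in 1 direction or at least 2-fold from Control at 2 or more times in BF or in BA, and the 5 genes with the highest Pearson r to IGF1 and to IGFBP1. Pairs of SOCS2, CISH and ONECUT1 were correlated after their values had been seen. Marker lists covered hepatocytes, sinusoidal endothelium, Kupffer cells, stellate cells, cholangiocytes (2 of 4 genes found, summing to 4.82 to 13.4 RPKM) and pancreatic acinar cells. Alternatives were an added 0.1 RPKM, columns rescaled on the median gene, no minimum, a 1.5-fold size, and omission of the BF columns. Rescaled overlap counts and omission of the BA columns were added after seeing the data. Promoter windows came from RefSeq (GRCr8).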

Additional observations from a re-analysis of the deposited data

Results flagged for a closer look

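The change from 0 h had opposite signs in 2 groups, each at least 1.5-fold, in 4 cases, and none of these differences was tested. SOCS2 at 24 h had a log2 ratio to 0 h of 1.68 in BF, 0.64 in BA and -1.95 in Control, so that the changes differed by 3.63 between BF and Control and by 2.59 between BA and Control. After rescaling, SOCS2 in BA was at 0.41, under the 1.5-fold size, so the BA and Control case no longer met it, and the other 3 cases did. IGFBP2 at 12 h had a ratio of 0.67 in BA, -1.34 in Control and -1.95 in BF, so that the changes differed by 2.01 between BA and Control and by -2.62 between BF and BA. IGFBP2 was at 3 RPKM or less in all 3 columns at 12 h, and the BF column at 12 h is the one with pancreatic transcripts.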

How the results depend on the processing

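No paired analysis was possible because no result comes from a test: each group at each time has 1 averaged column, so neither a shared replicate number nor the omission of a replicate could be fitted. A fit of group and time over the 12 columns, which would treat the 4 times as replicates, was not run. Of 210 single ratios of members, 201 kept their side of 2-fold after rescaling, 6 no longer reached it and 3 newly did; 21 changed sign, of which 0 were at least 2-fold as deposited. With 0.1 RPKM added, 207 kept their side. The count of pathway genes 2-fold from 0 h at 24 h went from 0 to 1 after rescaling and to 1 at 1.5-fold. At 1.5-fold the gene was BCL6, with log2 ratios of -0.82 in Control, -0.69 in BF and -1.20 in BA. No share of all genes is given for this rule at those settings, so the move is not read against the background. At 1.5-fold, 14 of 40 member values were apart in BF and Control (10.8% of all gene values) and 12 of 40 in BF and BA (9.16%). Without the BF columns, 1 member (IGFBP1) was 2-fold higher at 24 h (2.90% of all genes), and the members above all 0 h values numbered 5 at 4 h (17.4%) and 1 at 12 h (20.0%). Without the BA columns, 3 members were 2-fold lower at 12 h (3.94%), and the members below all 0 h values numbered 4 at 12 h (39.0%) and 7 at 24 h (15.2%). Fewer columns make these rules easier to meet. For the other moved counts the cause was not tested. The other counts stayed within 1.5 times. Read depth is unknown, so low values such as those of IGFBP2 have no stated precision.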

Other observations

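Receptors and ligands of the IGF family other than IGF1 were low or followed another course. IGF1R, the receptor of IGF1, was between 0.06 and 0.19 RPKM in the 12 columns, and IGF2, the fetal growth factor, between 0.04 and 0.15 RPKM. IGF2R, which takes up and degrades IGF2, was between 8.85 and 23.3 RPKM, and its 3 values at 24 h lay above all 3 at 0 h, as those of 40.1% of all genes did. Among the remaining binding proteins IGFBP7, which is secreted by endothelial cells and binds IGFs weakly, was between 41.0 and 67.1 RPKM, IGFBP6 between 0.43 and 2.00 RPKM and IGFBP5 between 0.11 and 0.56 RPKM. STC2 and PAPPA, an inhibitor and a protease of the IGFBP4 pathway, were at most at 0.27 and 0.02 RPKM.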
